A study of Mus musculus with 12 samples.

Results

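A set of 10 genes of iron and heme handling was followed across the kidney libraries: Hmox1, Fth1, Ftl1, Ncoa4, Tfrc, Slc39a14, Slc11a2, Steap3, Slc40a1 and Aco1. They were chosen by name as the central genes of heme breakdown, iron storage, uptake, export and sensing, and are 10 of the 55487 genes in the count table. All 10 passed the low-count filter in every comparison. The study deleted the sulfhydryl oxidase ALR (gene Gfer) in the proximal tubule and asked how such kidneys fare after ischemia-reperfusion (I/R). RNA sequencing covered 12 mouse kidney cortex libraries, 3 in each of 4 groups. Ctrl mice carried ALR flox/flox alleles without Cre and are labelled WT. PT-KO mice carried the same alleles with Ggt1-Cre, which acts in the proximal tubule, and their libraries are labelled ALR knockdown. Ctrl and PT-KO were sham operated, and injured Ctrl (Ctrl+I/R) and injured PT-KO (PT-KO+I/R) had 22 min of ischemia in both kidneys, then 24 h of reperfusion. All mice were 6 to 8 weeks old, on a mixed C57BL/6 background, so the controls shared the floxed alleles and differed from the knockouts by the Cre transgene as well as by the deletion.

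Library totals ran from 12165089 to 23123693 counts. Levels are given as CPM, read counts scaled to a common library size and composition. Gfer itself was not lower in the libraries labelled as knockouts: it lay between 11.4 and 14.4 CPM in Ctrl, 9.97 and 17.1 in PT-KO, 15.3 and 20.0 in injured Ctrl, and 21.6 and 22.8 in injured PT-KO. Counts over the whole gene from whole cortex can miss the loss of an exon in 1 cell type. This check therefore leaves the genotype unproven, and PT-KO stands here for the label. Apart from these counts, the paper reports decreased ALR expression in the kidneys of its PT-KO mice. Xist, the female transcript, had 19755 or more counts in Ctrl libraries 1 and 2, and at most 11 in the other 10. Each comparison with Ctrl therefore sets a group with 2 female kidneys against an all-male one. Proximal tubule marker genes, 8 in number, summed to 13510 to 14310 CPM in Ctrl and 12870 to 14590 in PT-KO, and none of the 8 was at 0. After I/R the sum was 3867 to 9163 CPM in injured Ctrl and 2235 to 2826 in injured PT-KO. In bulk samples, fewer cells of a type and less RNA per cell cannot be told apart.

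Iron that enters a cell is used, stored or exported. Transferrin-bound iron enters through the transferrin receptor (Tfrc). The carriers ZIP14 (Slc39a14) and DMT1 (Slc11a2) move iron across membranes, and the endosomal reductase Steap3 supplies the ferrous form. Ferritin, a shell of heavy (Fth1) and light (Ftl1) chains, stores the surplus, and the receptor Ncoa4 hands ferritin to lysosomes so that its iron is released. Ferroportin (Slc40a1) is the exporter, and heme oxygenase 1 (Hmox1) frees iron from heme. The kidney cortex meets iron and heme that pass the glomerular filter, and free ferrous iron drives the lipid peroxidation of ferroptosis. Aco1 encodes cytosolic aconitase, which becomes iron regulatory protein 1 (IRP1) when iron is scarce. IRP1 and its partner IRP2 bind iron-responsive elements (IREs), hairpins in untranslated regions that hold back translation when they lie in the 5′ UTR and stabilise the transcript when they lie in the 3′ UTR.

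The IRE sequences of these genes are shown because they tie 4 members to one regulatory system, in which mRNA counts alone do not give the amount of protein. The spliced UTRs of the annotation were searched on the sense strand for CNNNNNCAGTGN with a 5-base-pair stem around the loop. The search matched 0.151% of 20580 genes with a 5′ UTR and 0.615% of 20978 genes with a 3′ UTR. Fth1, Ftl1 and Slc40a1 each had 1 match in the 5′ UTR, and Tfrc had 4 in the 3′ UTR. Each 30-base stretch is written 5′ to 3′ on the gene's strand with the 6-base loop in capitals, taken from GENCODE M21 transcripts on GRCm38:
Fth1, chr19:9982732-9982761, plus strand: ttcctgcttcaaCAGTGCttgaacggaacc
Ftl1, chr7:45459778-45459807, minus strand: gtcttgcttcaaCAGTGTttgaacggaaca
Slc40a1, chr1:45925464-45925493, minus strand: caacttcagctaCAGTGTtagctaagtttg
Tfrc site 1, chr16:32631219-32631248, plus strand: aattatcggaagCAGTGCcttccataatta
Tfrc site 2, chr16:32631598-32631627, plus strand: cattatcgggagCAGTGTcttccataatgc
Tfrc site 3, chr16:32631663-32631692, plus strand: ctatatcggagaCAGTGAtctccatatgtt
Tfrc site 4, chr16:32631710-32631739, plus strand: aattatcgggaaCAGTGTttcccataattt
No match in the other 6 members says only that the UTRs of their annotated protein-coding transcripts hold no such letters with all 5 stem pairs. An IRE with an imperfect stem would be missed, so these 6, Slc11a2 among them, are not shown to lack one.

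Ferritin dominated the group in every condition. On the scale of CPM per kilobase of principal transcript, Ctrl kidneys had Fth1 at 2609 ± 384, Ftl1 at 1125 ± 75.8 and Aco1 at 127 ± 8.56 (mean ± SD, n = 3). Slc11a2 (35.6 ± 2.61), Tfrc (30.5 ± 11.3) and Slc40a1 (25.1 ± 5.02) followed. Tfrc was not separated from either neighbour beyond its spread, whereas Slc11a2 lay above Slc40a1 in every Ctrl library. Ncoa4 (14.2 ± 0.816), Hmox1 (14.0 ± 2.52) and Slc39a14 (13.1 ± 1.75) formed a lower group that was likewise not separated, and Steap3 was lowest at 5.12 ± 1.85. In injured PT-KO the order had changed, with Hmox1 ranked next after ferritin at 254 ± 119. Slc39a14, at 63.3 ± 11.6 in the same libraries, had a spread that reached the mean of Aco1 at 74.1 ± 1.88. Fth1 stood at 13220 ± 1103 there, and Steap3 at 1.27 ± 0.317.

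**Figure D1:**
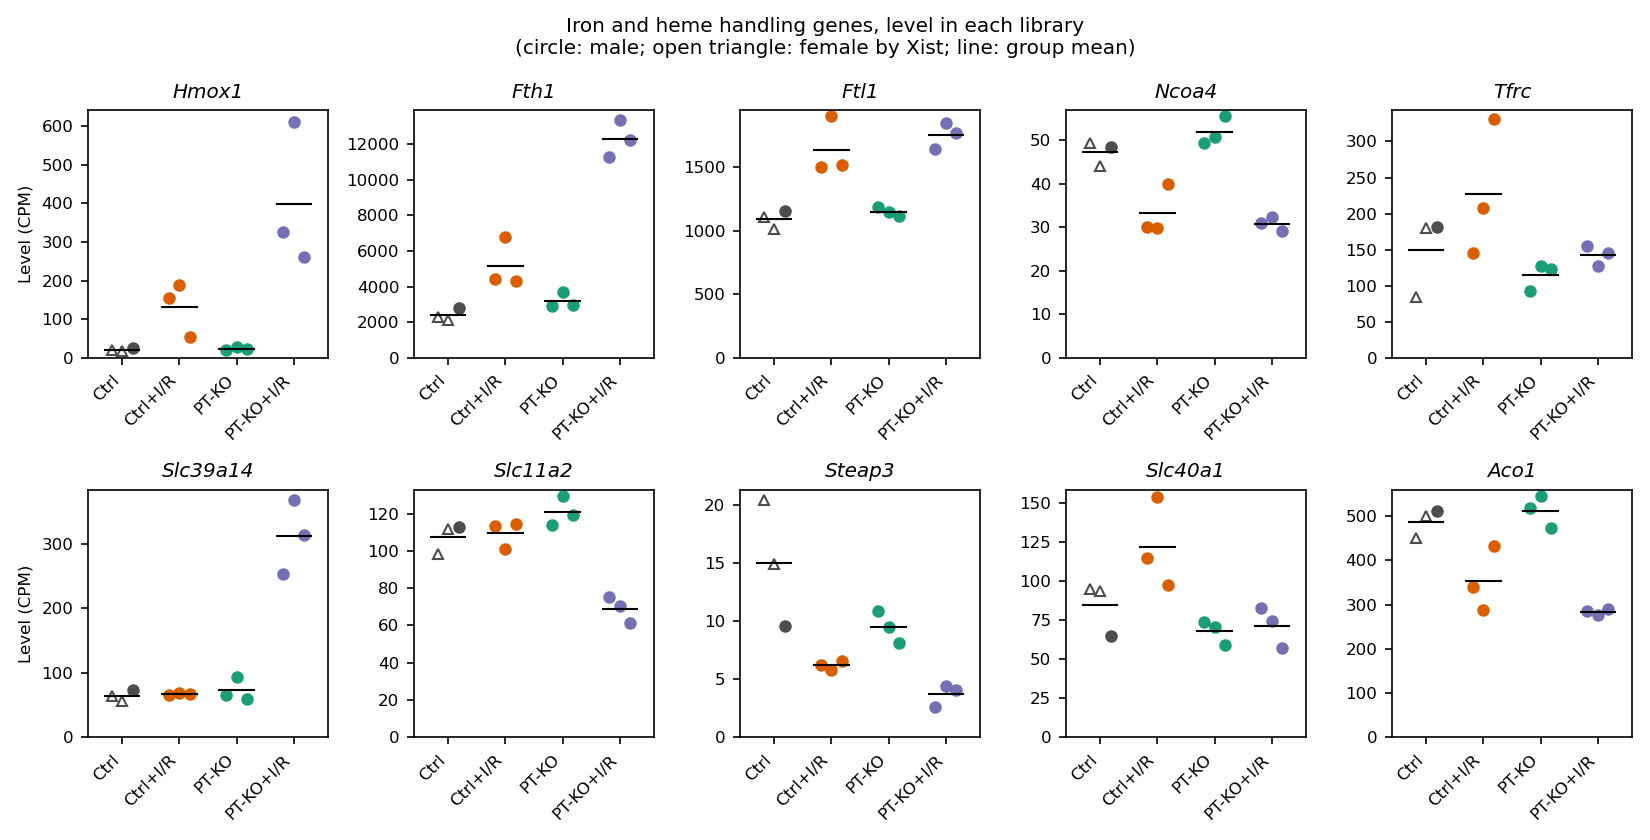
Level of each of the 10 genes in CPM (linear axes from 0) in the 12 libraries, 3 per group, with the group mean as a line and the 2 female Ctrl libraries as open triangles. The 3 PT-KO+I/R libraries lie above all others in Hmox1, Fth1 and Slc39a14 and below all others in Slc11a2 and Steap3.

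Hmox1 (chr8:75093621-75100589) was low in both sham groups and high in both injured ones. Ctrl libraries 1 to 3 had 21.5, 18.4 and 26.2 CPM, against 154.5, 187.6 and 54.1 CPM in the injured Ctrl libraries 1, 2 and 4. PT-KO libraries 1, 2 and 4 had 21.5, 28.2 and 24.2 CPM, and injured PT-KO libraries 2, 3 and 4 had 325.8, 610.5 and 260.3 CPM. Each injured library exceeded each sham library, and each injured PT-KO library exceeded each injured Ctrl library. The rise was 6.02-fold in control mice (log2 fold change 2.59 with SE 0.43, edgeR adjusted p = 0.0125) and 16.1-fold in knockout mice (4.01, SE 0.30, edgeR adjusted p = 1.9e-06). Between the injured groups it was 3.01-fold higher in injured PT-KO (1.59, SE 0.47, edgeR adjusted p = 0.0244), and this call was lost without injured Ctrl library 1 (1.71, edgeR adjusted p = 0.0561) or without injured PT-KO library 3 (1.16, edgeR adjusted p = 0.0879). The call in control mice was lost without Ctrl library 1 or Ctrl library 2 (edgeR adjusted p = 0.0594 in both).

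Fth1 (chr19:9980598-9985098), the ferroxidase chain of ferritin, rose with injury, and most in the knockout. Its levels were 2295, 2148 and 2827 CPM in Ctrl, and 4427, 6788 and 4304 CPM in injured Ctrl. In PT-KO they were 2928, 3677 and 2985 CPM, and in injured PT-KO 11280, 13330 and 12240 CPM. The 4 groups did not overlap at any step, so that even the lowest PT-KO library lay just above the highest Ctrl library. Fth1 rose 2.14-fold with I/R in control mice (log2 fold change 1.10 with SE 0.25, edgeR adjusted p = 0.0282) and 3.83-fold in knockout mice (1.94, SE 0.13, edgeR adjusted p = 7.6e-07). It was 2.37-fold higher in injured PT-KO than in injured Ctrl (1.24, SE 0.22, edgeR adjusted p = 0.0030), a call kept without any 1 of the 6 libraries. The call in control mice was lost without Ctrl library 1 (edgeR adjusted p = 0.103), Ctrl library 2 (0.105) or injured Ctrl library 1 (0.0670), and with sex as a covariate (0.87, SE 0.27, edgeR adjusted p = 0.0562).

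Ftl1 (chr7:45457944-45459884), the light chain, rose with injury, and no difference between genotype labels passed. It was at 1102, 1010 and 1155 CPM in Ctrl, 1495, 1898 and 1511 in injured Ctrl, 1187, 1145 and 1112 in PT-KO, and 1637, 1841 and 1766 in injured PT-KO. Sham and injured libraries were separated, whereas the 2 injured groups overlapped. The rise was 1.51-fold in control mice (log2 fold change 0.59 with SE 0.17, edgeR adjusted p = 0.0464) and of like size in knockout mice (0.60, SE 0.093, edgeR adjusted p = 2.8e-04). Between the injured groups the log2 difference was 0.093 (SE 0.15, edgeR adjusted p = 0.626), and -0.12 with total counts in place of TMM. The call in control mice was kept only without injured Ctrl library 4, and was lost without any of the other 5 libraries (edgeR adjusted p up to 0.151) and with sex as a covariate (0.50, edgeR adjusted p = 0.0782).

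The heavy chain thus gained on the light chain. The ratio of Fth1 to Ftl1 counts, looked at after the levels had been seen and therefore given as a description, was 2.08, 2.13 and 2.45 in Ctrl and 2.47, 3.21 and 2.68 in PT-KO. It was 2.96, 3.58 and 2.85 in injured Ctrl and 6.89, 7.24 and 6.93 in injured PT-KO. Being taken within a library, the ratio does not depend on how libraries were scaled. Ferritin genes have processed pseudogenes that can share reads with them. The table lists 2 such rows for Fth1, with at most 0.00876% of the counts of Fth1, and 3 for Ftl1, with 0.508% to 0.814% of the counts of Ftl1. Adding them to the parent changed no fold change by more than its SE and no call. Reads placed on the parent gene from an unlisted copy would not show in this way. Over 26.5% of its exonic bases Ftl1 overlaps Gm10252 on the other strand, and over 8.13% the microRNA gene Gm22133. Whether the libraries kept strand is not known, so reads there cannot be told apart.

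**Figure D2:**
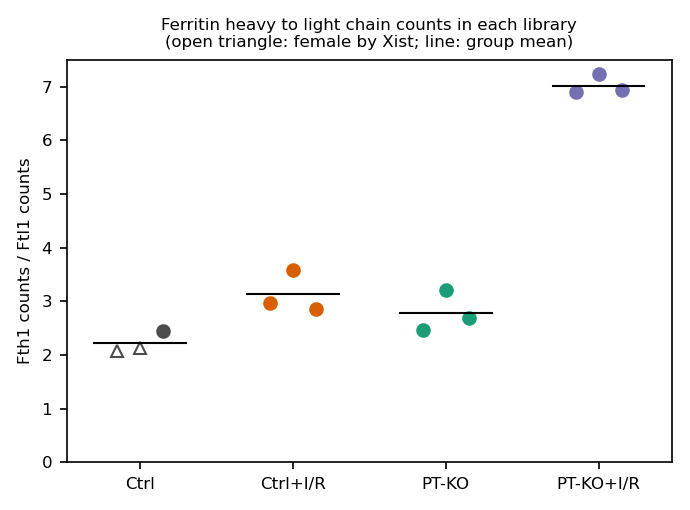
Ratio of Fth1 to Ftl1 counts (axis from 0, no unit) in the 12 libraries by group, with the group mean as a line and female libraries as open triangles. The PT-KO+I/R libraries lie between 6.89 and 7.24, above the highest value of any other group, 3.58 in Ctrl+I/R.

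Ncoa4 (chr14:32159865-32179855), the receptor for ferritin breakdown, moved opposite to its cargo. It was at 49.3, 44.2 and 48.4 CPM in Ctrl, 29.97, 29.77 and 40.04 in injured Ctrl, 49.3, 50.7 and 55.5 in PT-KO, and 30.9, 32.4 and 29.2 in injured PT-KO. Every injured library lay below every sham library, and the injured groups overlapped. In knockout mice it fell by 0.76 on the log2 scale (SE 0.091, edgeR adjusted p = 5.1e-05). In control mice it fell by 0.50 (SE 0.14, edgeR adjusted p = 0.0442), a call kept only without injured Ctrl library 4, lost without any other library (edgeR adjusted p up to 0.136) and lost with total counts in place of TMM (-0.39, edgeR adjusted p = 0.0846). Between injured groups the log2 fold change came to -0.12 (SE 0.14, edgeR adjusted p = 0.525), and 0.035 without injured Ctrl library 4.

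Among the uptake genes, the carrier Slc39a14 (chr14:70303469-70351425) separated the injured PT-KO libraries from all others. It was at 64.3, 56.2 and 73.4 CPM in Ctrl, 66.0, 68.5 and 66.5 in injured Ctrl, and 66.0, 93.3 and 59.9 in PT-KO. The injured PT-KO libraries had 253.8, 368.1 and 312.8 CPM, the lowest of them well above the highest of the other 9. I/R raised it 4.25-fold in knockout mice (log2 fold change 2.09 with SE 0.18, edgeR adjusted p = 5.5e-06). In control mice the difference was 0.058 (SE 0.12, edgeR adjusted p = 0.752). injured PT-KO exceeded injured Ctrl 4.63-fold (2.21, SE 0.15, edgeR adjusted p = 1.3e-04), and both calls were kept whichever library was left out. ZIP14 also carries zinc and manganese, and is known as an acute-phase gene in liver.

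Slc11a2 (chr15:100387898-100425072), the proton-coupled ferrous iron carrier, was lower in the same libraries. Its levels were 98.5, 111.7 and 112.7 CPM in Ctrl, 113.5, 100.9 and 114.5 in injured Ctrl, 113.7, 129.4 and 119.3 in PT-KO, and 75.3, 70.3 and 61.1 in injured PT-KO. Ctrl and injured Ctrl overlapped, and each injured PT-KO library lay below each of the other 9. In knockout mice it fell by 0.82 on the log2 scale after I/R (SE 0.097, edgeR adjusted p = 4.5e-05), against a log2 fold change of 0.034 in control mice (SE 0.11, edgeR adjusted p = 0.848). injured PT-KO was below injured Ctrl by a log2 fold change of -0.68 (SE 0.11, edgeR adjusted p = 0.0024), kept without any 1 library. Over 6.33% of its exonic bases it overlaps Gm5475 on the other strand.

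Tfrc (chr16:32608920-32632794), the transferrin receptor, varied most within the 2 control groups, where its SD was 55.3 CPM on a mean of 149 in Ctrl and 94.5 on 228 in injured Ctrl, against 18.7 on 115 in PT-KO and 13.8 on 143 in injured PT-KO. It was at 85.2, 180.3 and 181.7 CPM in Ctrl, 145.2, 207.4 and 330.8 in injured Ctrl, 93.1, 127.6 and 123.0 in PT-KO, and 155.2, 127.9 and 144.8 in injured PT-KO. The highest value belonged to injured Ctrl library 4, which had the lowest Hmox1 of its group and also the lowest Lcn2, a tubular injury marker (161.2 CPM against 240.8 and 456.2 CPM in libraries 1 and 2). The log2 fold change with I/R was 0.62 in control mice (SE 0.37, edgeR adjusted p = 0.258) and 0.31 in knockout mice (SE 0.13, edgeR adjusted p = 0.0526), neither called. Between injured groups it was -0.68 (SE 0.27, edgeR adjusted p = 0.0676). That last difference passed with DESeq2 (adjusted p = 0.0263), with total counts (-0.89, edgeR adjusted p = 0.0247), with no low-count filter (edgeR adjusted p = 0.0258) and without injured Ctrl library 1 (-0.93, edgeR adjusted p = 0.0163). The difference in knockout mice passed with total counts (0.36, edgeR adjusted p = 0.0216), with no low-count filter (edgeR adjusted p = 0.0252), without PT-KO library 2 (edgeR adjusted p = 0.0350) and without injured PT-KO library 3 (edgeR adjusted p = 0.0348).

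Steap3 (chr1:120190757-120272705), the ferrireductase that acts beside the transferrin receptor, fell with I/R. It was at 20.5, 14.9 and 9.64 CPM in Ctrl, 6.21, 5.85 and 6.58 in injured Ctrl, 10.9, 9.48 and 8.10 in PT-KO, and 2.65, 4.41 and 4.06 in injured PT-KO. The 2 female Ctrl libraries held the highest values, and the male Ctrl library 3 lay within the PT-KO range. In knockout mice it fell by 1.34 on the log2 scale (SE 0.22, edgeR adjusted p = 4.4e-04). The fall of 1.27 in control mice (SE 0.26, edgeR adjusted p = 0.0223) was lost with sex as a covariate (-0.64, SE 0.27, edgeR adjusted p = 0.137), and without Ctrl library 1, Ctrl library 2, injured Ctrl library 1 or injured Ctrl library 2 (edgeR adjusted p 0.0546 to 0.0780). injured PT-KO was below injured Ctrl by -0.73 (SE 0.23, edgeR adjusted p = 0.0329), and this call was lost without injured Ctrl library 1 or 4 and without injured PT-KO library 2 or 4 (edgeR adjusted p 0.0661 to 0.0767).

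The exporter Slc40a1 (chr1:45908068-45926523) was highest in injured control kidneys. It was at 94.7, 93.7 and 64.9 CPM in Ctrl, 114.6, 153.4 and 97.0 in injured Ctrl, 73.4, 70.7 and 59.2 in PT-KO, and 82.8, 74.4 and 57.1 in injured PT-KO. Each injured Ctrl library exceeded each injured PT-KO library, while the PT-KO groups overlapped. injured PT-KO was below injured Ctrl by a log2 fold change of -0.77 (SE 0.19, edgeR adjusted p = 0.0121), and the call was lost without injured PT-KO library 4 (-0.63, edgeR adjusted p = 0.0526). With I/R it changed by 0.53 in control mice (SE 0.20, edgeR adjusted p = 0.101) and 0.068 in knockout mice (SE 0.14, edgeR adjusted p = 0.679). With sex as a covariate the difference in control mice was 0.91 and passed (edgeR adjusted p = 0.0408), and male Ctrl library 3 had the lowest level of its group. Macrophages, which recycle iron, are a known site of ferroportin. Their 8 marker genes summed to 94.5 to 154 CPM in injured Ctrl and 59.6 to 67.0 CPM in injured PT-KO, where 5 were lower and Cd68 was higher. Their part in the Slc40a1 and Hmox1 differences was not tested.

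Aco1 (chr4:40143081-40198338), the IRP1 gene, was lowest in injured kidneys. It was at 449.2, 499.0 and 511.0 CPM in Ctrl, 339.6, 288.6 and 431.7 in injured Ctrl, 517.8, 545.8 and 471.9 in PT-KO, and 284.6, 276.4 and 290.7 in injured PT-KO. All injured libraries lay below all sham libraries, with injured Ctrl library 4 nearest to them. In knockout mice it fell by 0.86 on the log2 scale (SE 0.089, edgeR adjusted p = 1.9e-05). In control mice the log2 fold change came to -0.45 (SE 0.17, edgeR adjusted p = 0.102), past the threshold in the fit to all 12 libraries (-0.46, edgeR adjusted p = 0.0236) and without injured Ctrl library 4 (-0.63, edgeR adjusted p = 0.0318). Between injured groups it was -0.32 (SE 0.16, edgeR adjusted p = 0.129), past the threshold with total counts (-0.52, edgeR adjusted p = 0.0212) and without injured Ctrl library 2 (-0.46, edgeR adjusted p = 0.0198).

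**Figure D3:**
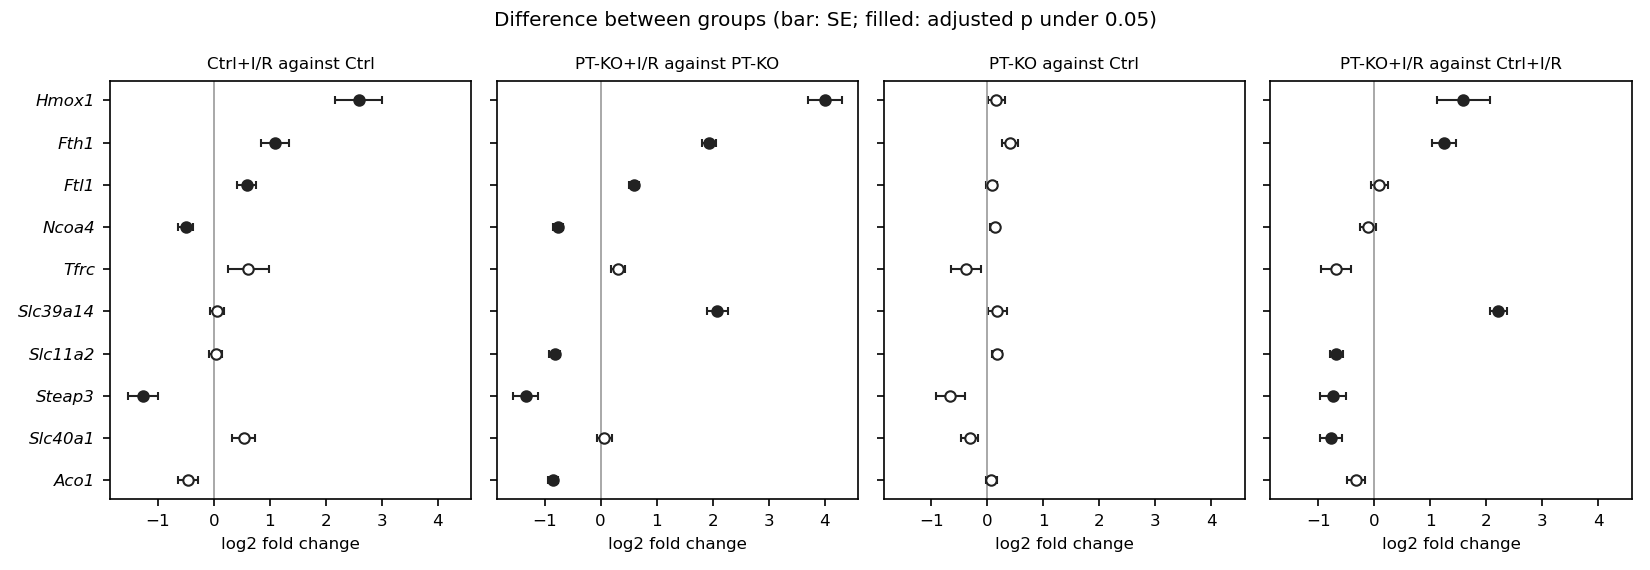
Log2 fold change of each of the 10 genes (horizontal axis) in 4 pairs of groups, with bars of 1 SE and filled points where the edgeR adjusted p was under 0.05. Filled points number 5 in Ctrl+I/R against Ctrl, 8 in PT-KO+I/R against PT-KO, 0 in PT-KO against Ctrl and 6 in the panel that sets the injured groups side by side.

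In control mice, 5 of the 10 genes passed with I/R, Hmox1, Fth1 and Ftl1 higher and Ncoa4 and Steap3 lower, where 19.4% of all 15567 genes tested did. Over all genes 1778 were higher and 1241 lower, or 2346 and 766 with total counts. The 3 libraries of each group did not overlap in 7 members, against 43.7% of all genes. The median log2 fold change was 0.30 over the members and -0.011 over all genes. The count of called members was 0 without Ctrl library 1 or Ctrl library 2, 3 without Ctrl library 3, 1 without injured Ctrl library 1 and 2 without injured Ctrl library 2. With sex as a covariate 3 passed, Hmox1, Ncoa4 and Slc40a1, a fit that rests on the male Ctrl library 3 alone for the level of Ctrl males. Marker genes of several cell types moved in the same comparison. Of the neutrophil markers 4 of 4 tested were higher, their sum going from 1.35 to 2.27 CPM in Ctrl (Ly6g and Mmp8 at 0) to 9.17 to 39.3 in injured Ctrl. Macrophage markers were higher in 5 of 7 (sums of 78.4 to 105.8 and 94.5 to 154 CPM) and fibroblast markers in 3 of 5 (140.5 to 177 and 344 to 423 CPM), and all 3 tubular injury markers were higher. Podocyte markers were lower in 3 of 3 (403 to 529.8 and 284 to 329 CPM), those of the loop and distal tubule in 2 of 4 (5680 to 7604 and 1660 to 4131 CPM), those of the proximal tubule in 3 of 8, and 1 each of collecting duct and endothelium was lower. Their part in the 5 member calls was not tested.

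Within the knockout label, 8 of 10 genes passed with I/R, 4 higher (Hmox1, Fth1, Ftl1, Slc39a14) and 4 lower (Ncoa4, Slc11a2, Steap3, Aco1). So did 65.5% of all 15155 genes tested, 32.9% higher and 32.7% lower, so a high count is common to the whole transcriptome here. Groups did not overlap in 9 members, against 71% of all genes. All 6 libraries of this comparison were male, and the 8 calls were kept whichever library was left out. Here too markers of several cell types moved. Neutrophil markers were higher in 5 of 5 tested (sums of 0.736 to 2.46 CPM in PT-KO, with Ly6g at 0, and 53.1 to 82.0 in injured PT-KO), and the 3 tubular injury markers were higher. Lower were 8 of 8 markers of the proximal tubule, 4 of 4 of the loop and distal tubule (5570 to 6393 and 2219 to 2674 CPM), 2 of 3 of the collecting duct, and 1 each of podocytes and erythroid cells. Macrophage markers were split, 2 higher and 4 lower of 8 (85.8 to 86.6 and 59.6 to 67.0 CPM), as were those of endothelium, 3 higher and 1 lower of 5, and 1 fibroblast marker was higher. The 4 lymphocyte markers, none of which passed the low-count filter, summed to 1.84 to 2.46 CPM in PT-KO and 0.171 to 0.356 in injured PT-KO. The part of these cells in the 8 calls was not tested.

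Without injury no difference between PT-KO and Ctrl passed the test. None of the 10 members passed with edgeR, nor did any of the 15291 genes tested (0%). At an unadjusted p under 0.05 there were 2 members, Fth1 (log2 fold change 0.40 with SE 0.14, edgeR adjusted p = 0.249) and Steap3 (-0.66, SE 0.26, edgeR adjusted p = 0.267), and 2573 genes in all. DESeq2 called 0 members and 448 of 15299 genes, and edgeR with total counts in place of TMM called 0 members and 1 gene. The members' log2 fold changes lay between -0.66 and 0.40. Groups did not overlap in 3 members, against 20.9% of all genes. Without the male Ctrl library 3, when genotype and sex cannot be told apart, 3 members passed: Fth1 (0.52, edgeR adjusted p = 0.0225), Slc40a1 (-0.48, edgeR adjusted p = 0.0186) and Steap3 (-0.90, edgeR adjusted p = 0.0136). How many of all genes passed in that fit was not counted, so these calls do not set the members apart.

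After injury, 6 of 10 genes differed between the genotype labels, Hmox1, Fth1 and Slc39a14 higher and Slc11a2, Steap3 and Slc40a1 lower in injured PT-KO. Over all 15281 genes tested 46.9% passed, 22.5% higher and 24.4% lower. Groups did not overlap in 6 members, against 58.8% of all genes. The median absolute log2 fold change was 0.71 over the members and 0.48 over all genes. In the same order it was 0.17 and 0.17 in PT-KO against Ctrl, and 0.42 and 0.50 in the interaction. With I/R it was 0.56 and 0.33 in control mice, and 0.84 and 0.63 in knockout mice. Scaling by total counts shifted the median of all genes to -0.21 on the log2 scale, turned 3444 higher and 3725 lower calls over all genes into 1978 and 5080, and left the members with 3 higher and 5 lower. The 3 tubular injury markers, Lcn2, Havcr1 and Krt20, moved with the groups: their sum was 552 to 2617 CPM in injured Ctrl and 4800 to 6312 CPM in injured PT-KO. The 6 neutrophil markers summed to 9.17 to 39.3 and 53.1 to 82.0 CPM, with 4 of 5 tested higher. The 5 fibroblast markers summed to 344 to 423 CPM in injured Ctrl and 109 to 190 in injured PT-KO, where Col1a1 and Col1a2 were lower. The 5 endothelium markers summed to 323 to 344 and 383 to 404 CPM, with 3 higher and 1 lower. The 4 lymphocyte markers, none of which passed the low-count filter, summed to 1.14 to 5.09 and 0.171 to 0.356 CPM. Of the loop and distal tubule 2 of 4 markers were lower, Slc12a1 (means of 422 and 40.6 CPM) and Slc12a3 (365 and 238 CPM), and of 3 podocyte markers Nphs1 was (22.0 and 9.73 CPM), while the sums of these lists overlapped. No marker of these lists was at 0 throughout an injured group. The part of these cells and of the degree of injury in the 6 differences was not tested.

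The question whether the response to I/R differed between genotype labels was tested as an interaction on all 12 libraries. It was called for 3 of 10 members, against 30.6% of all 16168 genes tested (14.3% positive, 16.4% negative). Total counts changed 2305 positive and 2648 negative calls over all genes to 1591 and 2997. The Slc39a14 response was larger in knockout mice by 2.04 on the log2 scale (SE 0.25, edgeR adjusted p = 1.9e-04), and the Fth1 response by 0.85 (SE 0.27, edgeR adjusted p = 0.0339). That of Slc11a2 was lower by a log2 difference of -0.84 (SE 0.15, edgeR adjusted p = 0.0015). Slc39a14 and Slc11a2 kept their calls in all 12 fits that left out 1 library, whereas Fth1 lost it in 8 (0.72 to 0.89, edgeR adjusted p 0.0537 to 0.0789), all but those without Ctrl library 2, injured Ctrl library 2, PT-KO library 2 or injured PT-KO library 2. Hmox1 had an interaction of 1.43 (SE 0.56, edgeR adjusted p = 0.0700), which passed without injured Ctrl library 2 (1.76, edgeR adjusted p = 0.0307) and with no low-count filter (edgeR adjusted p = 0.0237). Aco1 had -0.39 (SE 0.19, edgeR adjusted p = 0.143) and passed without injured Ctrl library 2 (-0.53, edgeR adjusted p = 0.0268), where 5 members passed in all. For Ftl1 the difference of responses was 0.021 (SE 0.17), or -0.071 with total counts, and for Steap3 -0.059 (SE 0.36). Markers of several cell types were called in the same test. Positive were 3 of 3 of tubular injury, 3 of 5 of endothelium (1 negative), and 1 each of neutrophils, collecting duct and podocytes. Negative were 6 of 8 of the proximal tubule, 5 of 8 of macrophages (1 positive), 4 of 4 of lymphocytes, 2 of 5 of fibroblasts and 1 of the loop and distal tubule. Their part in the 3 member calls was not tested.

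A list of 79 other iron and heme genes gave the surroundings, of which 70 could be tested in at least 1 comparison. The other 9, the hepcidin gene Hamp among them, stayed under the filter in these comparisons when all libraries were kept, and Hamp, Hephl1 and Ftmt had 0 counts in every library. Between the injured groups 37 of 70 passed, 22 higher and 15 lower in injured PT-KO, against 46.9% of all genes. With total counts the split was 13 higher and 23 lower. The median log2 fold change was 0.10, and -0.0049 over all genes. The counts by role that follow stand beside 22.5% higher and 24.4% lower over all genes, and with 5 to 21 tested genes a role they describe these genes and set no role apart.

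Of 5 genes of heme breakdown and its regulators beyond Hmox1, 3 were higher in injured PT-KO. The biliverdin reductase genes both rose, Blvrb by a log2 fold change of 2.11 (SE 0.16, edgeR adjusted p = 1.7e-04) and Blvra by 0.87. So did Nfe2l2, which encodes the activator NRF2 (0.96). Heme synthesis was mixed, with 2 of 12 higher and 5 lower. Alas1, the first and rate-limiting enzyme outside the erythroid line, was higher by 1.60 (SE 0.25, edgeR adjusted p = 0.0019), and Fech, which inserts iron into the ring, by 0.88. Uros, a middle step, was lower by a log2 fold change of -2.57 (SE 0.17, edgeR adjusted p = 1.2e-04), from a mean of 15.9 CPM in injured Ctrl to 2.67 CPM. The erythroid isoform Alas2 was lower too (-2.04). Erythroid markers, of which Alas2 is 1 of 6, summed to 82.2 to 215 CPM in injured Ctrl and 42.4 to 49.7 CPM in injured PT-KO, and their part in the heme synthesis values was not tested.

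In heme and hemoglobin scavenging and transport, 4 of 10 tested genes were higher and 4 lower. The endocytic receptor cubilin (Cubn) had a log2 fold change of -2.04 and the folate and heme carrier Slc46a1 one of -1.17, while the lysosomal heme carrier Slc48a1 was higher by 0.80. Cubn and Lrp2 (megalin) of this list are also markers of the proximal tubule, where 6 of 8 markers were lower. Of 11 tested genes of iron uptake and reduction, 3 were higher, Lcn2 (2.43), Cybrd1 (1.62) and Steap1 (1.27), and 1 was lower, the phagosomal carrier Slc11a1 (-1.29). Lcn2, which binds bacterial iron carriers, is also one of the injury markers. Cybrd1, a membrane ferrireductase, was scarce, with a mean of 2.96 CPM in injured PT-KO and 0.966 CPM in injured Ctrl.

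Of 6 tested genes of export and the hepcidin axis, 3 passed, close to the 46.9% of all genes, and all 3 were higher: Hfe (0.71), Bmp6 (0.66) and Neo1 (0.55), all of which act upstream of hepcidin in liver. In the list of chaperones and sensing Pcbp2, an iron chaperone that delivers to ferritin, was higher by 0.44 and Ireb2, the gene of IRP2, by 0.38, while the ubiquitin ligase gene Herc2 had -0.62. Of 21 genes of mitochondrial iron and iron-sulfur clusters, 5 were higher and 4 lower, a share likewise near that of all genes. The mitochondrial importer Slc25a28 (mitoferrin 2) was higher by 0.75, and Hscb, a co-chaperone of cluster transfer, and Fdxr, ferredoxin reductase, were lower with log2 fold changes of -1.12 and -0.94.

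**Figure D4:**
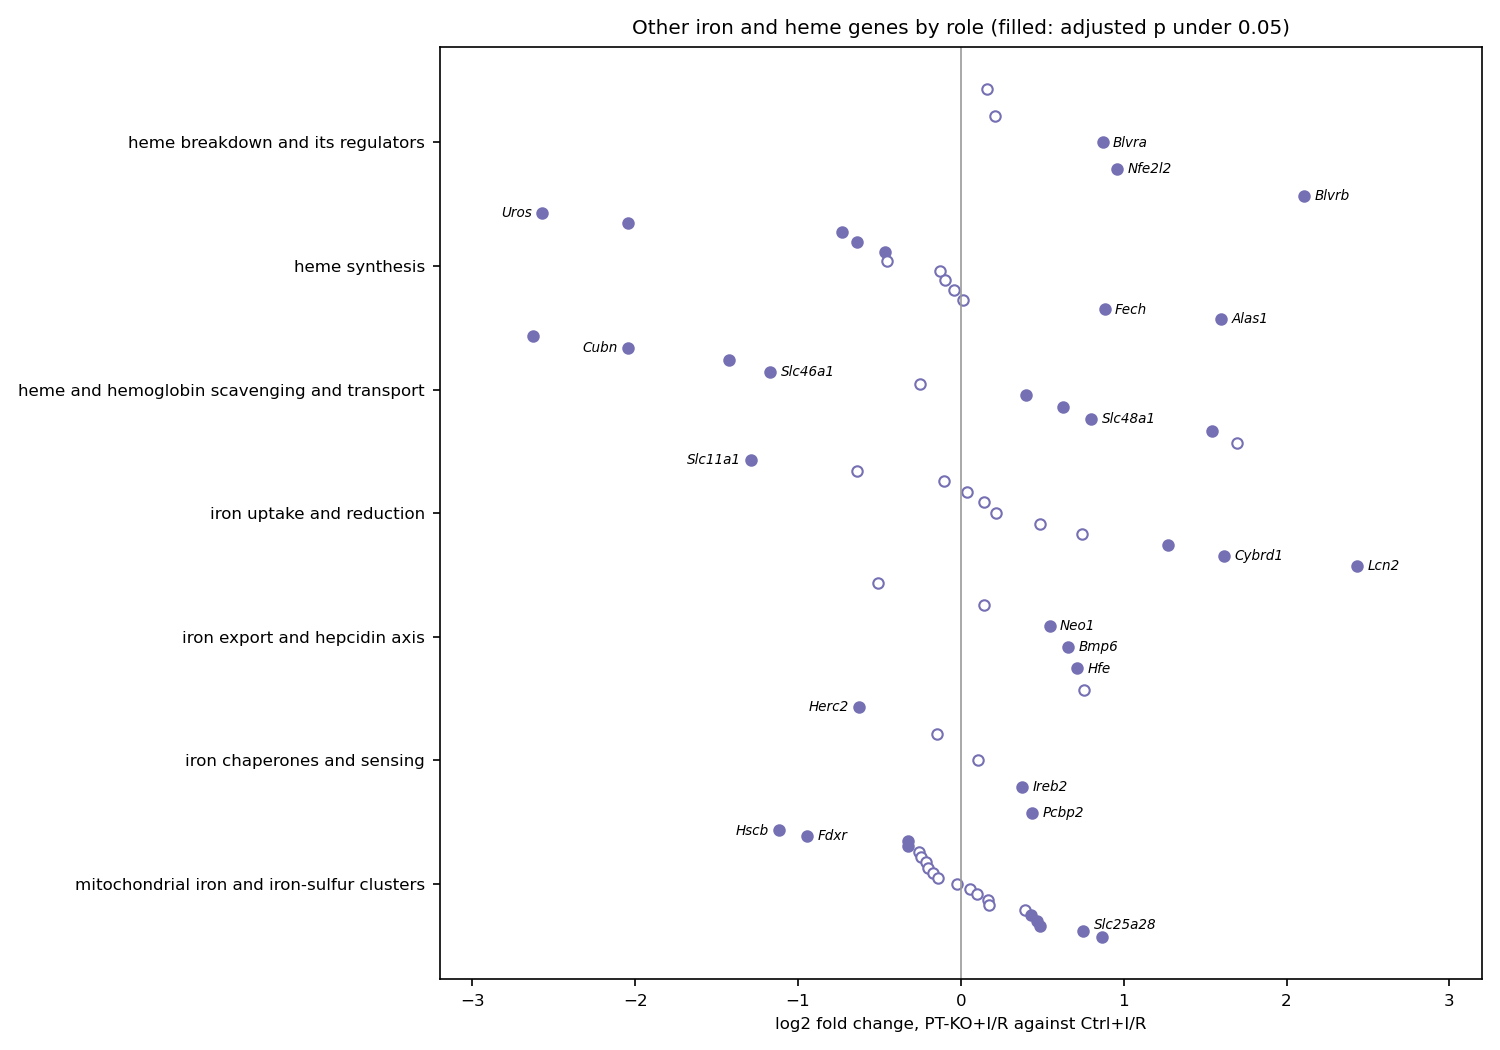
Log2 fold change of PT-KO+I/R over Ctrl+I/R (horizontal axis) of the 70 tested genes of the wider list, grouped by role, each point 1 gene and filled where the edgeR adjusted p was under 0.05. Of 5 genes of heme breakdown and its regulators 3 were higher and 0 lower, whereas heme synthesis had 2 higher and 5 lower of 12.

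With I/R in control mice 16 of 69 tested list genes passed, 7 higher and 9 lower, against 19.4% of all genes. With total counts the split was 11 higher and 7 lower. The largest rise was that of Lcn2 (log2 fold change 7.97), and the ferroxidase ceruloplasmin (Cp) rose by 2.07, Slc11a1 by 2.02, Lrp1, the receptor for heme bound to hemopexin, by 1.06, Bmp6 by 0.66 and Blvrb by 0.49. Slc11a1 is a phagocyte gene, and the neutrophil, macrophage and fibroblast markers that were higher in this comparison are given above with their sums. Their part in these rises was not tested. Among those that fell were Lrp2 (-1.25), Slc39a8, the carrier most like Slc39a14 (-1.07), the ferroxidase Heph (-0.97) and Slc46a1 (-0.68). The cysteine desulfurase Nfs1 (-0.56) and the cluster assembly gene Isca1 (-0.42) fell as well. The 12 tested heme synthesis genes had a median log2 fold change of -0.10. The count of 16 ranged from 3 without Ctrl library 2 to 18, and was 4 without Ctrl library 1, 4 without injured Ctrl library 1 and 9 without injured Ctrl library 2.

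With I/R in knockout mice 51 of 70 passed, 26 higher and 25 lower, against 65.5% of all genes (32.9% higher and 32.7% lower), beside which the counts by role here stand too. All 10 tested scavenging and transport genes passed, 6 higher and 4 lower, with Cubn (-2.94), Lrp2 (-2.58) and Slc46a1 (-1.77) at the smallest adjusted p. Iron uptake and reduction had 6 higher and 2 lower of 11, among them Lcn2 (10.04), Steap1 (3.68) and Steap2 (1.13), the last 2 being metalloreductases related to Steap3. Cp (2.88), Bmp6 (1.57) and Hfe (1.34) rose, as did Blvrb (2.60), Nfe2l2 (1.28) and Blvra (0.96). Heme synthesis had 3 higher and 6 lower of 12, with Alas1 at 2.07, Uros at -3.08 and Abcb10, a mitochondrial inner membrane transporter, at -0.85. Of 21 mitochondrial genes 3 were higher and 10 lower, with the smallest adjusted p among the 13 in Hscb (-1.44), Cisd1 (-0.91) and Nfs1 (-0.84). Herc2 (-0.97) fell, and the chaperones Pcbp1 (0.42) and Pcbp2 (0.34) rose.

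Without injury 0 of 68 tested list genes differed between PT-KO and Ctrl with edgeR, against 0% of all genes, and 13 had an unadjusted p under 0.05. DESeq2 called 2, transferrin (Trf, log2 fold change -1.21) and Cp (-0.66), both lower in PT-KO. Without the male Ctrl library 3 the count was 12, of which Tmprss6 passed the low-count filter in that fit but not with all 6 libraries. The share of all genes passing without that library was not counted, so the 12 do not set the list apart. The interaction was called for 30 of 70 list genes, 18 positive and 12 negative, against 30.6% of all genes, with 12 positive and 12 negative under total counts. With sex as a covariate 16 were called, 8 positive and 8 negative, in a fit whose share of all genes was not counted. Among the 30 were Blvrb, Blvra and Nfe2l2 of heme breakdown and its regulators, all positive. Heme synthesis had 2 positive and 4 negative of 12, scavenging and transport 2 and 3 of 10, and mitochondrial genes 2 and 3 of 21. Iron uptake and reduction had 5 and 1 of 11, export and the hepcidin axis 3 and 0 of 6, and chaperones and sensing 1 and 1 of 5. Over all genes 14.3% were positive and 16.4% negative.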

How the data were processed

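RNA was sequenced from 12 mouse kidney cortex libraries. The authors deposited 1 table of read counts per Ensembl gene, whole numbers neither normalized nor filtered. The submitters' processing notes name HISAT2 2.0.4 and mm10, while the counting program, annotation and strand setting are not given in the sources used here. Gene symbols and UTRs were taken from GENCODE M21 (GRCm38, the mm10 assembly), which named 55141 of 55487 genes and all 139 listed genes.

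In edgeR 4.0.16 (R 4.3.3), filterByExpr removed low counts, TMM scaled the libraries and glmQLFTest compared groups, with 6 libraries in each pairwise fit and 12 for the interaction. Benjamini-Hochberg adjustment covered all genes tested, with a threshold of 0.05 for a call. The printed CPM were scaled over all 12 libraries. Alternatives were DESeq2 1.42.0, total counts, no low-count filter, the replicate number as a block, sex as a covariate, 1 fit to 12 libraries, leaving out each library, and ferritin pseudogenes added to their parents. The code was tested on simulated data.

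Groups came from the labels. The column of Ctrl library 3 matched its group but none of the sample titles numbered 1, 2 and 4. The labels do not say that libraries came from separate mice, so p-values measure only the spread between these libraries, of which there are 3 per group. Members, gene lists and tests were chosen with earlier results of these data known. All members are named. Of the wider list, up to 3 called genes per role with the smallest adjusted p are named, and others where a count of 5 or fewer is given, or (Alas2, Lrp2, Hamp, Hephl1, Ftmt and Tmprss6) after their values were seen.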

Additional observations from a re-analysis of the deposited data

Results flagged for a closer look

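For 3 members the response to I/R differed between the genotype labels by the interaction test itself, on 12 libraries with edgeR. Slc39a14 had a difference of 2.04 on the log2 scale (SE 0.25, adjusted p = 1.9e-04), with a response of 2.09 in knockout and 0.058 in control mice. Slc11a2 had -0.84 (SE 0.15, adjusted p = 0.0015), with -0.82 and 0.034. Fth1 had 0.85 (SE 0.27, adjusted p = 0.0339), with 1.94 and 1.10, and 8 of the 12 leave-one-out fits did not call it. Across all genes 30.6% passed the same test, among them the markers of several cell types given above with the interaction. Their part in the 3 differences was not tested.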

How the results depend on the processing

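Without Ctrl library 3, whose number matches no sample title, same-numbered libraries form 12 pairs, of which 1 had residuals correlated over 0.1 (median r -0.031), so the numbers do not pair the samples. The replicate block gave 1 called member (Steap3, -0.79, edgeR adjusted p = 0.0198) and 7 called list genes in PT-KO against Ctrl. In injured PT-KO against injured Ctrl, which share the numbers 2 and 4 alone, it gave 1 (Slc39a14, 2.06, edgeR adjusted p = 0.0115) and 7, and the other 5 called members kept their direction at edgeR adjusted p 0.0501 to 0.157. It gave 16 list genes in the interaction, where Fth1 was not called (0.63, edgeR adjusted p = 0.181) and Ftl1 (-0.074) and Steap3 (0.079) changed sign. In the other comparisons the block moved no count by over 1.5 times, and Ftl1 was not called in injured Ctrl against Ctrl (0.68, edgeR adjusted p = 0.0684).

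With sex as a covariate 3 members passed in injured Ctrl against Ctrl, where Slc39a14 (-0.13) and Slc11a2 (-0.039) changed sign, and 16 list genes in the interaction. In PT-KO against Ctrl it changed the sign of Hmox1 (-0.088), Ftl1 (-0.0087), Slc39a14 (-0.0057) and Slc40a1 (0.062). Total counts changed that of Ftl1 (-0.045) and Aco1 (-0.051) there, and of Ftl1 in injured PT-KO against injured Ctrl (-0.12) and the interaction (-0.071). The median of all genes under total counts was 0.11 in injured Ctrl against Ctrl, -0.14 in PT-KO against Ctrl, -0.21 in injured PT-KO against injured Ctrl and -0.10 in the interaction. No low-count filter gave 2 list genes in PT-KO against Ctrl, as did DESeq2, and an Ftl1 interaction of -0.0045. None of the members named here as changing sign was called in that comparison. The cause was not tested.

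Leaving out 1 library gave 0 to 6 called members and 3 to 18 list genes in injured Ctrl against Ctrl, 8 to 9 and 46 to 53 in injured PT-KO against PT-KO, 0 to 3 and 0 to 12 in PT-KO against Ctrl, 4 to 7 and 28 to 40 in injured PT-KO against injured Ctrl, and 2 to 5 and 20 to 35 in the interaction. Log2 fold changes that changed sign ranged in injured Ctrl against Ctrl from -0.020 to 0.17 (Slc39a14) and -0.018 to 0.11 (Slc11a2), and in injured PT-KO against PT-KO from -0.037 to 0.21 (Slc40a1). In PT-KO against Ctrl the range was -0.034 to 0.30 (Slc39a14), and in injured PT-KO against injured Ctrl -0.20 to 0.035 (Ncoa4). In the interaction they were -0.042 to 0.13 (Ftl1), -0.54 to 0.067 (Tfrc) and -0.35 to 0.18 (Steap3).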

Other observations

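Genes whose levels ran most like those of single members were sought among 16168 genes by Pearson's r of log2(CPM + 1) over the 12 libraries, given as a description because the libraries share the 4 groups. Nearest to Hmox1 were Plscr3 (r = 0.991), Xbp1 (0.989) and Fbxo6 (0.987), and nearest to Fth1 were Nip7 (0.996), Pgs1 (0.993) and Pgd (0.992). For Tfrc the values were lower, with Srebf1 (0.868) and Arl6ip6 (0.851) nearest. Slc40a1 ran most like Igsf8 (0.950), Col17a1 (0.919) and A530020G20Rik (0.915).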
